A study of Homo sapiens with 18 samples.

Results

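Cytosolic ribosomal proteins are the protein components of the ribosomes that translate nuclear-encoded messages. Their transcripts were followed in RNA sequencing of 2 established human ovarian cancer cell lines, SKOV3 and A2780, given daphnetin, a dihydroxylated coumarin, or its solvent DMSO. Members were chosen by gene symbol alone: RPL or RPS followed by a number and at most an A or an X, together with RPLP0, RPLP1, RPLP2 and RPSA. The rule found 77 genes of the 56303 in the count table, 46 of the large ribosomal subunit and 31 of the small subunit. All 77 passed the filter on low counts in each line. Each line had 3 groups of 3 libraries: DMSO alone, and daphnetin at 20 or 40 mg/L. All 18 libraries carry the label WT, and no further allele or agent is named. The study set out to find mRNAs and pathways changed by daphnetin, and its title names ferroptosis and the quinone reductase NQO1. The protocols list DMEM with 10% serum and RPMI-1640 with 15% serum for A2780 and SKOV3, so line and culture medium cannot be told apart between lines. The duration of treatment is not given in the sources used here, and the labels do not say that replicates came from separate cultures. The p-values therefore reflect differences among these particular libraries, part of which may be technical.

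A ribosome joins a small subunit, which reads the message, to a large subunit, which makes the peptide bonds and passes the new chain through an exit tunnel. Each subunit needs about equal amounts of its proteins, and these mRNAs are among the most abundant of dividing cells. Most of them begin at their cap with a C followed by an unbroken run of pyrimidines, the terminal oligopyrimidine (TOP) tract. The LARP1 protein binds this tract, and the mTORC1 kinase controls translation of the mRNAs that carry it. RPL5 and RPL11 form a particle with 5S ribosomal RNA that can bind MDM2, and RPS6 is the classic substrate of the S6 kinases.

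Total counts ranged from 35105152 to 44132931 in SKOV3 libraries and from 30016475 to 37220879 in A2780 libraries. The members took 2.09% to 2.64% of the counts in SKOV3 and 3.01% to 3.49% in A2780. Mitochondrially encoded genes took 4.36% to 5.23% in SKOV3 and 10.6% to 16.5% in A2780. The epithelial markers KRT8, KRT18 and PAX8 were present in SKOV3 and near 0 in A2780, where KRT8 stayed at or under 1.84 CPM, KRT18 at or under 0.395 CPM and PAX8 at or under 0.441 CPM. ERBB2 and EPCAM were also on the list of ovarian cancer line markers and are not reported here. The 4 fibroblast and endothelial markers (PECAM1, CDH5, DCN and PDGFRA) summed in A2780 to 143 to 161 CPM at 20 mg/L and 130 to 143 CPM at 40 mg/L, against 181 to 205 CPM in DMSO. In SKOV3 they summed to 16.3 to 18.6 CPM at 20 mg/L and 6.32 to 8.23 CPM at 40 mg/L, against 15 to 17 CPM in DMSO. These sums do not show which of the 4 genes carried them. The part of these markers in the results below was not tested.

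Start-site sequences were available from RefSeq (build GRCh38.p14) for 62 of the 77 members. The table used held no entry for 15 members. The 40 bases around the annotated start, 20 before it and 20 from it on, are shown for the 4 members that rose most in SKOV3 at 40 mg/L among those with an entry, for 3 that fell in A2780, for the member with the longest tract, and for a member without a tract. Capitals mark the unbroken run of C and T that begins at the annotated start.
RPL10: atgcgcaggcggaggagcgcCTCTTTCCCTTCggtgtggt
RPLP0: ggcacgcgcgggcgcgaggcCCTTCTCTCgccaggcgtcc
RPS27: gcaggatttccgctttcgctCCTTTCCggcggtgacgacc
RPL28: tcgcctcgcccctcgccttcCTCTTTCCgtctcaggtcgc
RPL35: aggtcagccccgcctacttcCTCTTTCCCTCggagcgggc
RPL29: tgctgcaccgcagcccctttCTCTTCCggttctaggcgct
RPS24: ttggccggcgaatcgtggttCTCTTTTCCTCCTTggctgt
RPL39: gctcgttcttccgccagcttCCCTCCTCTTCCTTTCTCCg
RPS4X: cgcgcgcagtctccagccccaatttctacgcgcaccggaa
These windows lie at chrX:154398357-154398396 on the plus strand (RPL10), chr12:120201092-120201131 on the minus strand (RPLP0), chr1:153990742-153990781 on the plus strand (RPS27) and chr19:55385912-55385951 on the plus strand (RPL28). The next lie at chr9:124861938-124861977 on the minus strand (RPL35), chr3:51995876-51995915 on the minus strand (RPL29) and chr10:78033843-78033882 on the plus strand (RPS24). The last lie on the minus strand of the X chromosome, at chrX:119791611-119791650 (RPL39) and chrX:72277229-72277268 (RPS4X). RPL10 has more than 1 start listed, and the window with a tract is shown.

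A TOP tract, read on the transcript strand as a C at the annotated start followed by at least 4 bases that are each C or T, stood in 46 of the 62 members (74.19%). It stood in 1404 of all 27305 genes with a start-site entry (5.14%). The tracts of the members were 5 to 19 bases long, with a median of 8 and the longest in RPL39. A C at or within 10 bases of the annotated start, followed by at least 4 such bases, stood in 57 of the 62 members (91.94%). This C could lie inside a longer run that began further upstream. The same pattern stood in 10494 of all 27305 genes (38.43%). In the wider window of 250 bases before to 50 bases after the start, searched on both strands, CCGGAA, the core of ETS family sites, was found in 56.45% of members and 20.1% of all genes. ATGGCGG, the core of a YY1-type site, was found in 22.58% of members and 6.66% of all genes. CACGTG, the E-box, was found in 6.45% and 8.77%, and TATAAA in 8.06% and 13.99%. These matches describe the sequences and are not measurements of binding.

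At 40 mg/L daphnetin in SKOV3, most ribosomal protein transcripts of both subunits rose, by modest amounts. With edgeR's quasi-likelihood test and Benjamini-Hochberg adjustment over all genes, calls were made at adjusted values under 0.05. Of 77 members, 51 were called higher and 1 lower, where 26.4% of all genes tested were called higher and 25.6% lower, 52.1% in all. The large subunit had 31 of 46 called higher and the small subunit 20 of 31. The median log2 fold change was 0.18 for the large subunit and 0.19 for the small subunit, beside 0.01 over all genes. The members called higher spanned 0.13 (RPL38) to 0.51 (RPL10). For 49 members every library at 40 mg/L lay above every DMSO library and for none below, where 29.3% of all genes lay above and 28.4% below. In bulk samples a change in the number of cells expressing a gene and a change in RNA per cell cannot be told apart. Replicate 3 at 40 mg/L stood highest, with a median member log2 ratio to the DMSO mean of 0.30, against 0.16 and 0.10 in replicates 1 and 2, and without it 42 members were called higher and 1 lower. Leaving out any single library left 40 to 54 members called higher, where 22.9% to 25.2% of all genes were.

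**Figure D1:**
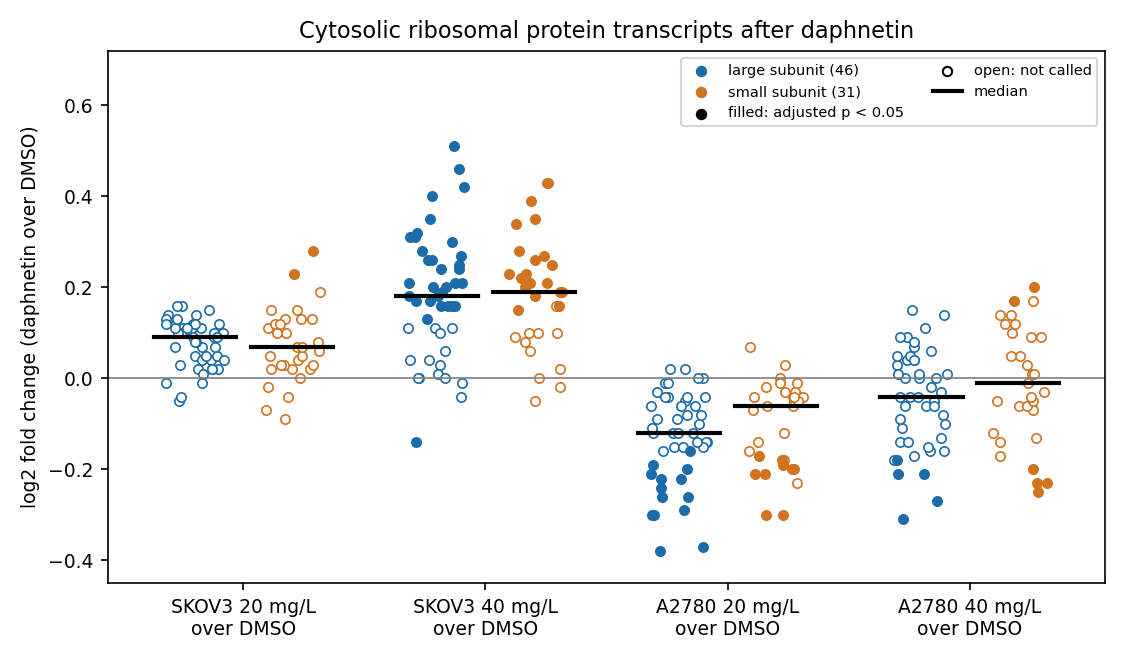
Log2 fold change of each of the 77 members, daphnetin over DMSO, in the 4 dose comparisons; points are genes (large subunit left and small subunit right in each pair), filled where the adjusted p was under 0.05, and black bars are medians. The SKOV3 40 mg/L columns lie mostly above 0 with medians of 0.18 and 0.19, and the A2780 20 mg/L columns lie mostly below 0 with medians of -0.12 and -0.06.

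RPL10, a large-subunit protein near the peptidyl transferase centre, had the highest fold change. It stood at 51.1, 53.4 and 58.2 CPM in the 3 SKOV3 libraries at 40 mg/L, against 38.7, 38.2 and 37.3 CPM in DMSO. The groups did not overlap, and the log2 fold change was 0.51 ± 0.06 (SE, adjusted p = 8.67e-09, edgeR). Exons of other genes cover 55.5% of the exonic length of RPL10 on the opposite strand, the largest share being DNASE1L1 with 34.2%, and the strand setting of the counting is not given. DNASE1L1 itself had a log2 fold change of 0.05 in this comparison (adjusted p = 0.659).

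The stalk of the large subunit, which recruits elongation factors, is built from RPLP0, RPLP1 and RPLP2 on a base that includes RPL12. RPLP0 measured 463, 413 and 489 CPM at 40 mg/L, against 327, 330 and 333 CPM in DMSO. All 3 treated libraries exceeded all DMSO libraries, with a difference of 0.46 ± 0.06 (SE) on the log2 scale with adjusted p = 2.27e-08. RPLP1 rose by 0.35 and RPL12 by 0.26 on the log2 scale. RPLP2 did not pass the test, at 0.00. RPL28, another large-subunit protein, reached 190, 178 and 204 CPM at 40 mg/L, against 136, 151 and 140 CPM in DMSO, a log2 fold change of 0.42 ± 0.06 (SE).

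In the small subunit, RPS27 and RPS28 were among the members with the highest fold changes. RPS27, which carries a zinc finger, had 106, 98.2 and 110 CPM at 40 mg/L, against 74.8, 78.9 and 79.9 CPM in DMSO. Its groups did not overlap, and the log2 fold change was 0.43 ± 0.06 (SE) with adjusted p = 5.63e-08. RPS28, at the mRNA exit site, had few counts, at 7.67, 7.1 and 7.82 CPM at 40 mg/L against 5.83, 6.07 and 5.31 CPM in DMSO, and rose by 0.39 on the log2 scale. KANK3 exons on the opposite strand cover 17.2% of the RPS28 exonic length.

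**Figure D2:**
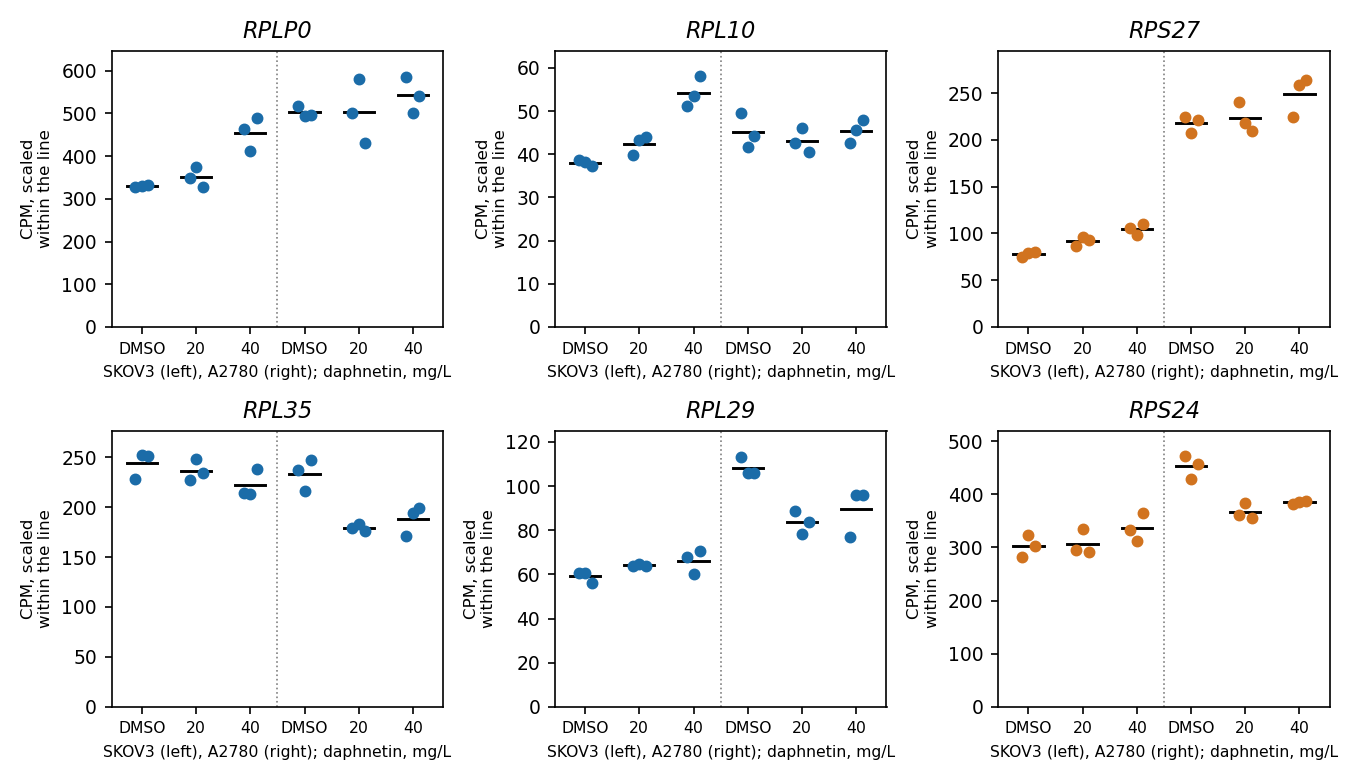
CPM of 6 members in every library, scaled within a line, with SKOV3 left and A2780 right of the dotted line in each panel and DMSO, 20 and 40 mg/L daphnetin along each side; points are libraries and bars are means of 3. RPLP0, RPL10 and RPS27 are higher at 40 mg/L than in DMSO in SKOV3, while RPL35, RPL29 and RPS24 are lower at both doses than in DMSO in A2780; levels on the 2 sides of the dotted line were scaled separately.

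Other groups of members in SKOV3 at 40 mg/L moved to different extents. Transcripts of both proteins of the 5S particle were called higher: RPL5 had a log2 fold change of 0.17 and RPL11 of 0.16. The RPL11 groups overlapped, and its call was lost with upper-quartile scaling (adjusted p = 0.0624) and without DMSO replicate 1 or 3 or 40 mg/L replicate 3 (adjusted p = 0.0706 to 0.171). RPS6 measured 580, 572 and 646 CPM at 40 mg/L, against 476, 501 and 511 CPM in DMSO, a difference of 0.27 ± 0.05 (SE) on the log2 scale with adjusted p = 6.97e-05. Its groups did not overlap. RPS2 and RPS3, at the mRNA entry site, rose by 0.20 and 0.23. RPS27A, made as a fusion with ubiquitin, rose by 0.21. Of the 8 members whose proteins lie at the peptide exit tunnel or its rim, 4 were called higher (RPL4, RPL17, RPL26 and RPL31) and 1 lower (RPL35). RPL39, which lines the tunnel, had 58.6, 57.9 and 66.4 CPM at 40 mg/L, against 59, 60.6 and 63.5 CPM in DMSO, and was not called (adjusted p = 0.977). The 95% confidence interval of its log2 fold change ran from -0.12 to 0.11.

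The 25 members that were not called in SKOV3 at 40 mg/L had log2 fold changes from -0.05 to 0.16 (RPS21). RPSA, the laminin-binding small-subunit protein at the mRNA exit site, stood at 0.10 with adjusted p = 0.105, although its groups did not overlap. RPL22, an RNA-binding large-subunit protein, stood at -0.04. RPL35, at the rim of the exit tunnel, was the exception in direction, at 214, 213 and 238 CPM at 40 mg/L against 228, 252 and 251 CPM in DMSO. Its groups overlapped, and its log2 fold change of -0.14 (adjusted p = 0.0361) was lost without DMSO replicate 2 or 3 or without 40 mg/L replicate 1 or 2, where the adjusted p was 0.123 to 0.155. It was also lost with library size alone (adjusted p = 0.138).

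At 20 mg/L in SKOV3 few members were called. RPS13 and RPS27 were higher and none was lower, 2 of 77, where 5.16% of all genes tested were called higher and 4.95% lower, 10.1% in all. The medians were 0.09 for the large and 0.07 for the small subunit, beside 0.00 over all genes. RPS13, a small-subunit protein, had 35.2, 36.4 and 40.7 CPM at 20 mg/L, against 28.5, 30.6 and 33.7 CPM in DMSO. Its log2 fold change was 0.28 ± 0.07 (SE, adjusted p = 0.00448), and the call was lost without DMSO replicate 1 or without 20 mg/L replicate 3 (adjusted p = 0.0666 and 0.0646). RPS27 had 86.2, 95.7 and 92.9 CPM at 20 mg/L, all above the DMSO libraries, with a log2 fold change of 0.23. For 19 members every 20 mg/L library lay above every DMSO library and for none below, where 13.6% of all genes were above. Of the SKOV3 libraries at 20 mg/L, replicate 2 stood apart, with a median member log2 ratio to the DMSO mean of 0.17, against 0.02 and 0.05 in the other libraries of that group.

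Between the doses in SKOV3, 27 members were higher at 40 than at 20 mg/L and none lower, where 23.2% of all genes tested were called higher and 24.2% lower, 47.4% in all. Of these 15 belonged to the large and 12 to the small subunit, with medians of 0.11 and 0.13. For 19 of the 77 members every 40 mg/L library lay above every 20 mg/L library and for none below. Of all genes, 26.4% lay above and 27% below. The highest in the large subunit were RPLP0 (0.38), RPL10 (0.35) and RPL28 (0.29), and those called in the small subunit included RPS18 (0.22) and RPS20 (0.19). The RPS20 call was lost without 20 mg/L replicate 1 (adjusted p = 0.072). RPLP0, for example, measured 463, 413 and 489 CPM at 40 mg/L, against 349, 374 and 328 CPM at 20 mg/L. Without 20 mg/L replicate 1 the count fell to 11 higher and 1 lower, where 19.9% of all genes were called higher and 21.5% lower. Without 40 mg/L replicate 3 it was 15 higher and 4 lower, where 22% of all genes were called higher and 23.4% lower. In both settings members were called higher less often than all genes. The comparisons of both doses with DMSO share their DMSO libraries.

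In A2780 the direction was the other way at 20 mg/L. None of the 77 members was called higher and 23 were called lower, where 18.1% of all genes tested were called higher and 18.9% lower. These were 14 of the large and 9 of the small subunit, with log2 fold changes from -0.38 to -0.16. The medians were -0.12 for the large and -0.06 for the small subunit, beside 0.01 over all genes, and 70 of the 77 values were negative. For 29 members every 20 mg/L library lay below every DMSO library, which 23.1% of all genes did. The count rested on few libraries: it was 11 without DMSO replicate 1, 10 without DMSO replicate 3 and 14 without 20 mg/L replicate 3, whose median member log2 ratio to the DMSO mean was -0.18, against -0.09 and -0.06 in the other libraries at that dose. With library size alone in place of TMM it was 7. Of all genes, 15.3% were called lower without DMSO replicate 1, and 15.3% without DMSO replicate 3. The share was 16.9% without 20 mg/L replicate 3 and 13.2% with library size alone. Without either of these DMSO libraries, and with library size alone, members were called lower no more often than all genes.

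RPL35 fell most. It measured 179, 183 and 176 CPM at 20 mg/L, against 237, 216 and 247 CPM in DMSO, a difference of -0.38 ± 0.07 (SE) on the log2 scale with adjusted p = 5.01e-05. RPL29, a large-subunit protein also described as a heparin-binding protein, had 88.9, 78.1 and 83.9 CPM at 20 mg/L, against 113, 106 and 106 CPM in DMSO, and fell by 0.37. Neither gene's groups overlapped.

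Among small-subunit members, RPS24, RPS15 and RPS7 fell most. RPS24, a gene mutated in some Diamond-Blackfan anaemia, had 361, 383 and 356 CPM at 20 mg/L, against 472, 428 and 458 CPM in DMSO, a difference of -0.30 ± 0.06 (SE) on the log2 scale with adjusted p = 0.000322. RPS15, near the decoding centre, had 62.3, 68.8 and 61.6 CPM at 20 mg/L, against 80.6, 77.8 and 79.2 CPM in DMSO, and also fell by 0.30. RPS7 fell by 0.21, with groups that did not overlap. RPS27A, the ubiquitin fusion, fell by 0.20 (adjusted p = 0.0289) and RPSA by 0.17 (adjusted p = 0.0472). The RPSA groups overlapped, and its call was lost under most alternatives, as with RLE scaling (adjusted p = 0.0517), with a range of adjusted p up to 0.468. The RPS27A call was lost without any of 4 single libraries, namely DMSO replicates 1 and 3 and 20 mg/L replicates 2 and 3 (adjusted p = 0.0535 to 0.168).

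Several central members of A2780 at 20 mg/L did not pass the test. RPLP0 had 502, 580 and 430 CPM at 20 mg/L, against 518, 495 and 497 CPM in DMSO, and its treated libraries lay on both sides of the DMSO values. RPS6 had a log2 fold change of -0.04, RPL5 of 0.02, RPL22 of -0.08, RPL39 of -0.04 and RPS27 of 0.03. RPL11 stood at -0.14 with adjusted p = 0.074. The sign of values this near to 0 depended on the scaling for RPS6, RPL22 and RPL39, which were above 0 with library size alone.

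At 40 mg/L in A2780, 2 members were called higher and 9 lower, where 17.7% of all genes tested were called higher and 19.2% lower. The large subunit had 0 higher and 5 lower and the small subunit 2 higher and 4 lower, with medians of -0.04 and -0.01 beside -0.01 over all genes. With library size alone the split was 12 higher and 1 lower, and over all genes 24.8% higher and 13.3% lower, so the direction of the members as a group at this dose depended on the scaling. For 9 members every 40 mg/L library lay above every DMSO library and for 15 below, where 22.7% and 24.5% of all genes did. Those called lower in the large subunit included RPL35 (-0.31), RPL29 (-0.27), RPL23A (-0.21) and RPL14 (-0.18). In the small subunit they were RPS21 (-0.25), RPS24 (-0.23), RPS7 (-0.23) and RPS15 (-0.20). Both doses were compared with the same DMSO libraries. The count of 9 lower was 5 without DMSO replicate 1 and 4 without 40 mg/L replicate 1, the library with the lowest mitochondrial share of the line (10.6%). It was 6 without DMSO replicate 3, and also 6 when the line's lowest libraries for mitochondrial share were left out (20 mg/L replicate 2 and 40 mg/L replicate 1). The share of all genes called lower was 16.4% without DMSO replicate 1 and 17% without 40 mg/L replicate 1. It was 15.5% without DMSO replicate 3 and 18.3% without the libraries of lowest mitochondrial share.

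RPL35 measured 171, 194 and 199 CPM at 40 mg/L in A2780, again below all 3 DMSO libraries (adjusted p = 0.000549). RPS21, a small protein of the small subunit, had 28.9, 29.5 and 30.3 CPM at 40 mg/L, against 34.1, 35.4 and 35.9 CPM in DMSO. Its groups did not overlap (adjusted p = 0.00807). The 2 members called higher were RPS27 and RPS4X. RPS27 had 225, 259 and 264 CPM at 40 mg/L, against 225, 207 and 221 CPM in DMSO. The groups met at 225 CPM but did not overlap before rounding, with a difference of 0.20 ± 0.07 (SE) on the log2 scale with adjusted p = 0.0275. RPS4X, the X-linked small-subunit protein, had 431, 424 and 444 CPM at 40 mg/L, against 393, 367 and 391 CPM in DMSO, with a log2 fold change of 0.17 (adjusted p = 0.041). Both calls were lost without DMSO replicate 2, at adjusted p = 0.0841 for RPS27 and 0.0991 for RPS4X, and the RPS4X call also under the replicate block (adjusted p = 0.0684). Without 40 mg/L replicate 2 or 3 both calls were also lost, at adjusted p = 0.119 and 0.149 for RPS27 and 0.07 and 0.128 for RPS4X. No member was called higher without any of these 3 libraries.

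RPL5 was not called in A2780 at 40 mg/L, at 2542, 2430 and 2436 CPM against 2336, 2054 and 2356 CPM in DMSO, a log2 fold change of 0.14 (adjusted p = 0.165). Its groups did not overlap, and with library size alone it was called, at 0.24 (adjusted p = 0.0181). RPLP0 stood at 0.11, RPS6 at 0.05, RPSA at 0.01, RPS27A at -0.03, RPL22 at -0.05, RPL39 at -0.06 and RPL11 at -0.08, none called. Between the doses in A2780 edgeR called no member, where 6.71% of all genes tested were called higher and 7.85% lower at 40 than at 20 mg/L. DESeq2 called 3 members higher, where it called 7.96% of all genes higher and 8.14% lower. The median was 0.09 for the large and 0.11 for the small subunit, and 72 of 77 values were positive. Leaving out 20 mg/L replicate 2 together with 40 mg/L replicate 1, the A2780 libraries with least mitochondrial RNA, gave 13 members higher, leaving out the first of these alone gave 8 and the second alone gave 5. In the same order, 6.82%, 7.85% and 5.24% of all genes were called higher.

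Both subunits had higher summed counts at 40 mg/L than in DMSO in SKOV3. The SKOV3 large-subunit sum was 16149 ± 533 CPM in DMSO, 16941 ± 855 CPM at 20 mg/L and 17837 ± 1176 CPM at 40 mg/L (SD, n = 3 each). The small-subunit sum was 5889 ± 155 CPM in DMSO, 6149 ± 288 CPM at 20 mg/L and 6654 ± 495 CPM at 40 mg/L. Each 40 mg/L library exceeded every SKOV3 DMSO library for both sums, while the 20 mg/L libraries overlapped both neighbouring groups for both sums. In A2780, the large-subunit sum was 24805 ± 1272 CPM in DMSO, 22806 ± 924 CPM at 20 mg/L and 24223 ± 873 CPM at 40 mg/L. The small-subunit sum was 9389 ± 391 CPM in DMSO, 8750 ± 485 CPM at 20 mg/L and 9372 ± 272 CPM at 40 mg/L. In A2780 the ranges at each dose overlapped those in DMSO for both sums. The ratio of large to small subunit counts was 2.74 ± 0.0239 in DMSO, 2.76 ± 0.0327 at 20 mg/L and 2.68 ± 0.0257 at 40 mg/L in SKOV3. The SKOV3 libraries at 40 mg/L (2.68, 2.71 and 2.66) lay below every DMSO library (2.72, 2.77 and 2.74) and every 20 mg/L library (2.72, 2.76 and 2.78), a difference that was not tested. In A2780 it was 2.64 ± 0.0354, 2.61 ± 0.0463 and 2.58 ± 0.0348 in the same order. The sums weight abundant and long transcripts most.

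**Figure D3:**
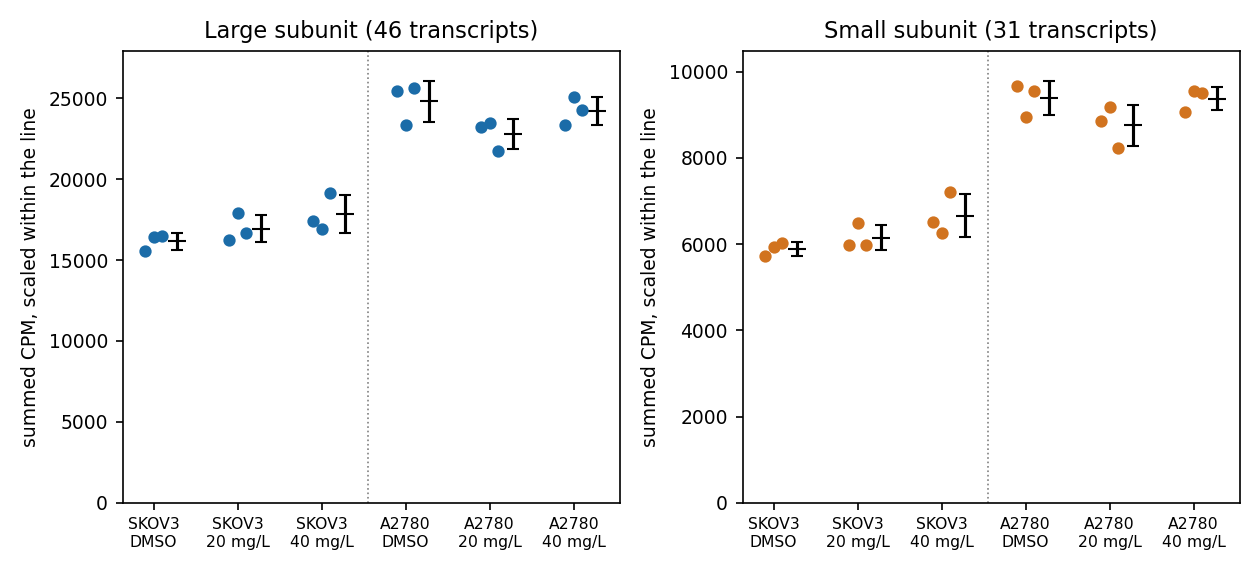
Summed CPM of the large-subunit (left) and small-subunit (right) members in every library, scaled within a line; points are libraries, and the black mark and bar are the mean and SD of 3. In SKOV3 the 40 mg/L libraries lie above all DMSO libraries for both subunits, at means of 17837 and 6654 CPM; SKOV3 and A2780 were scaled separately.

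The difference between the lines in response was tested directly, as an interaction in 1 fit of all 18 libraries. At 20 mg/L, 20 members had a more positive response in SKOV3 than in A2780 and none a more negative one, where 11% of all genes tested were called higher and 10.6% lower. The median difference was 0.20 for the large and 0.17 for the small subunit, beside -0.01 over all genes. The large-subunit members of highest difference were RPL29 (0.48 ± 0.1 SE, adjusted p = 0.000357) and RPL35A (0.43). In the small subunit they were RPS13 (0.41), RPS24 (0.32) and RPS25 (0.30). The count was 10 without SKOV3 20 mg/L replicate 2, 12 without SKOV3 DMSO replicate 1, 13 without A2780 20 mg/L replicate 3 and 13 with library size alone. The share of all genes called higher was 9.54% without either SKOV3 library, 10.1% without that A2780 library and 8.83% with library size alone. RPS24 and RPS25 were not called without SKOV3 20 mg/L replicate 2 (adjusted p = 0.0546 and 0.0582).

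At 40 mg/L, 26 members responded more positively in SKOV3, 18 of the large and 8 of the small subunit, and none more negatively, where 14.3% of all genes tested were called higher and 15.7% lower, 29.9% in all. The median difference was 0.20 for each subunit, beside 0.00 over all genes. The highest in the large subunit were RPL10 (0.48 ± 0.1 SE, adjusted p = 0.000219), RPL29 (0.41) and RPL37 (0.39), and in the small subunit RPS21 (0.39), RPS18 (0.38) and RPS24 (0.36). RPL37, a small zinc-binding protein of the large subunit, had 321, 296 and 318 CPM in SKOV3 at 40 mg/L, against 242, 256 and 250 CPM in SKOV3 DMSO. In A2780 it had 259, 280 and 260 CPM at 40 mg/L, against 292, 273 and 289 CPM in DMSO. The count was 15 without SKOV3 DMSO replicate 1 and 16 without SKOV3 40 mg/L replicate 3. In these settings 12.6% and 13.5% of all genes were called higher.

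Of 56 members called at 40 mg/L in at least 1 line, 7 were called in both (9.09% of the members), where 24.6% of all genes tested in both lines were. The members called the same way came to 3.9%, against 18.3% of all genes, and those called opposite ways to 5.19%, against 6.25% of all genes. RPS27 and RPS4X were higher in both lines and RPL35 was lower in both. Those higher in SKOV3 and lower in A2780 included RPL14, RPL29 and RPS24. RPL14, a large-subunit protein, shows the opposite directions: 313, 314 and 340 CPM at 40 mg/L against 265, 294 and 286 CPM in DMSO in SKOV3, and 603, 685 and 645 CPM at 40 mg/L against 749, 695 and 747 CPM in DMSO in A2780. Several of these calls were close to the threshold. In A2780 the RPL14 call had adjusted p = 0.0338 and 0.0606 under the replicate block, and it was lost without DMSO replicate 1 or 3 or 40 mg/L replicate 1 or 3 (adjusted p = 0.078 to 0.159). The A2780 call of RPL29 was lost without 40 mg/L replicate 1 (adjusted p = 0.064). In SKOV3 RPL29 missed the threshold when DMSO replicate 3 was left out (adjusted p = 0.144), when 40 mg/L replicate 1 or replicate 3 was (adjusted p = 0.0688 and 0.0995), and in the fit of all 18 libraries (adjusted p = 0.0681). In SKOV3 the RPS24 call had adjusted p = 0.0351, and 0.0651 with DESeq2, and was lost without DMSO replicate 1 or 3 or 40 mg/L replicate 1 or 3 (adjusted p = 0.0524 to 0.234). The RPS4X call in SKOV3 was lost without DMSO replicate 1 (adjusted p = 0.0829). Across the 77 members the fold changes of the lines at 40 mg/L had a Pearson r of 0.54, a description only, since members of a line share its libraries and scaling.

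**Figure D4:**
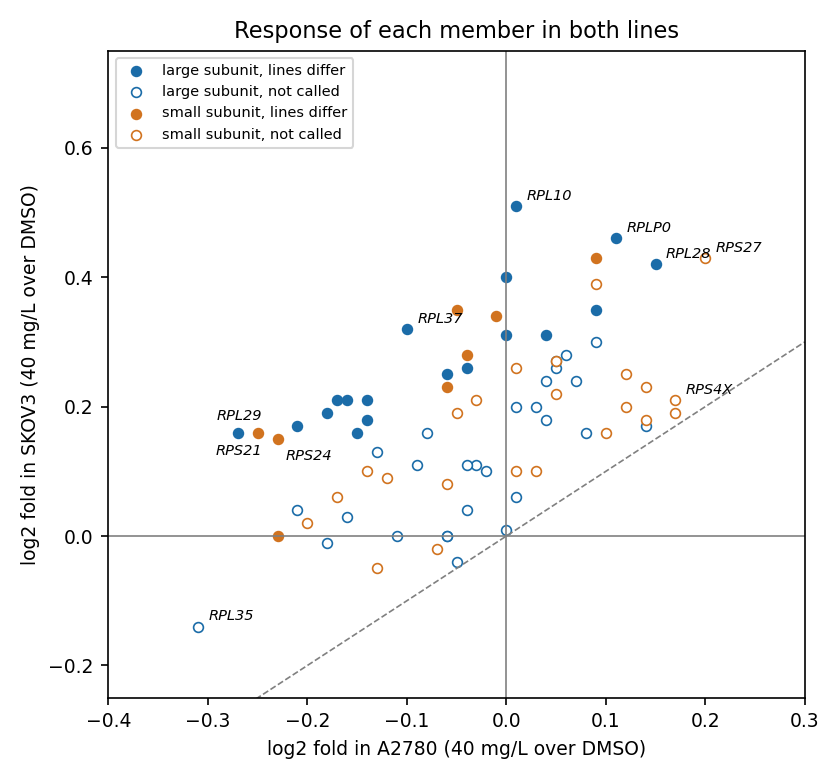
Log2 fold change of each member at 40 mg/L over DMSO in SKOV3 (vertical) against A2780 (horizontal); filled points are the 26 members whose responses were called different between the lines, and the dashed line marks equal response. Nearly all points lie above the dashed line, with RPL10 at 0.51 in SKOV3 and 0.01 in A2780, and RPL35 below 0 in both.

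In DMSO the lines themselves differed. Of 77 members, 66 were lower in SKOV3 than in A2780 and 1, RPL36, was higher, where 41.2% of all genes tested were called higher and 37.2% lower. The large subunit had 37 of 46 lower and the small subunit 29 of 31, with median log2 fold changes of -0.46 and -0.64 beside 0.05 over all genes. For 68 members every SKOV3 library lay below every A2780 library and for 1 above, where 37.9% of all genes lay below and 41.7% above. Upper-quartile scaling shifts the median of all genes by -0.13 and gives 72 lower and none higher. The same SKOV3 DMSO libraries enter the dose comparisons of that line.

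The range between members was wide. RPS27, RPL5, RPS12, RPSA and RPL14 were lowest in SKOV3 relative to A2780. RPL5 had 805, 837 and 826 CPM in SKOV3, against 2293, 2019 and 2319 CPM in A2780, scaled over all 18 libraries, a difference of -1.43 ± 0.07 (SE) on the log2 scale with adjusted p = 1.37e-22. Its partner RPL11 had 206, 230 and 218 CPM in SKOV3, against 241, 236 and 249 CPM in A2780, a log2 fold change of -0.15 (adjusted p = 0.0284) that DESeq2 did not call (adjusted p = 0.0651). The transcripts of the 5S particle proteins thus differed between lines by unequal amounts. RPS27 had 75.6, 79.9 and 80.7 CPM in SKOV3, against 221, 203 and 218 CPM in A2780, and stood at -1.44. RPS12, a small-subunit protein of the head region, stood at -1.41, RPSA at -1.37, RPL14 at -1.33 and RPL34 at -1.02. RPSA gave 164, 163 and 166 CPM in SKOV3, against 437, 408 and 427 CPM in A2780.

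RPS6 and RPS27A were also lower in SKOV3, at -0.99 and -1.02. RPLP0 had a log2 fold change of -0.57 and RPL22 of -0.39. RPL36, a large-subunit protein, measured 153, 158 and 165 CPM in SKOV3, against 145, 137 and 137 CPM in A2780, a log2 fold change of 0.18 (adjusted p = 0.00986). It was not called with upper-quartile scaling (0.06, adjusted p = 0.427), and HSD11B1L exons cover 17.6% of its exonic length on the same strand. The 10 members that were not called ran from -0.15 (RPL39) to 0.10 (RPL35).

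**Figure D5:**
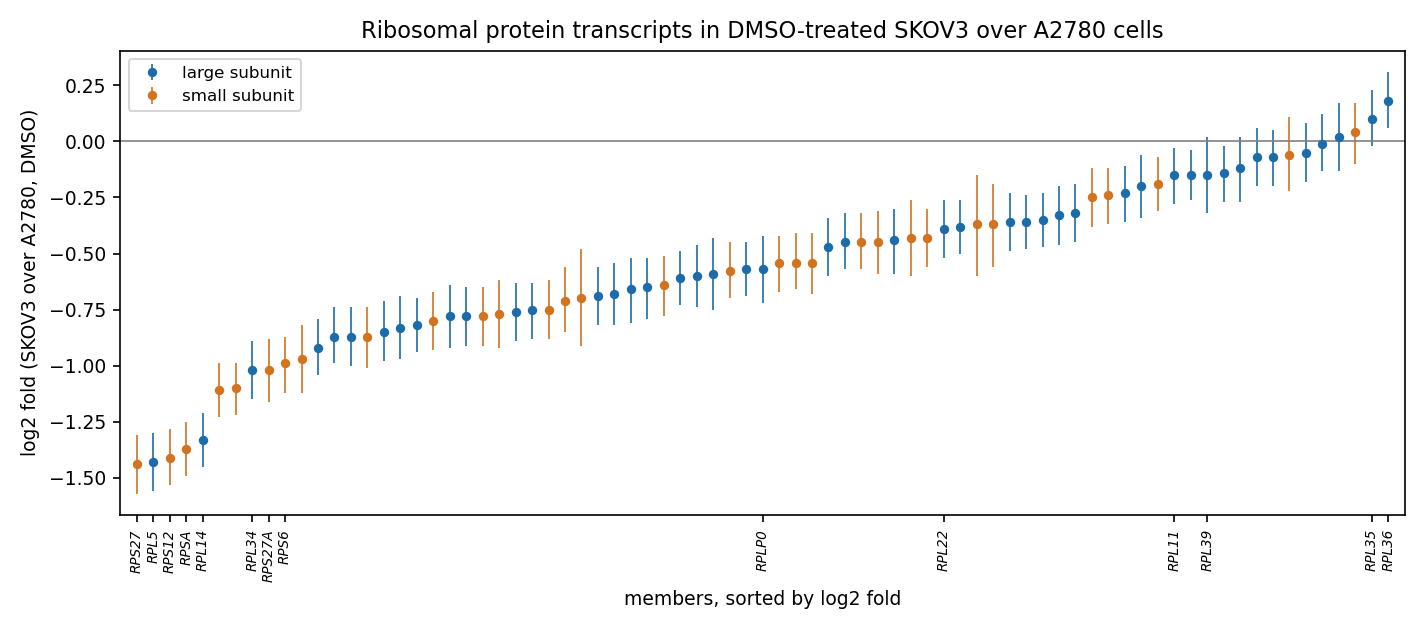
Log2 fold change of each member in SKOV3 over A2780, both in DMSO, with 95% confidence intervals, sorted from lowest to highest, with some of the members described in the text labelled; blue is the large and orange the small subunit. Values run from -1.44 (RPS27) to 0.18 (RPL36), and the subunits are interspersed.

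Levels per kilobase of exonic length, scaled over all 18 libraries, were highest in SKOV3 DMSO for RPL23A (643 ± 24.3), RPL19 (406 ± 14), RPL13A (347 ± 11) and RPL27 (335 ± 21.1 CPM per kb, SD, n = 3). In A2780 DMSO they were highest for RPL23A (1027 ± 70.7), RPL5 (765 ± 57.4), RPL13A (656 ± 17.4) and RPL19 (407 ± 22.3 CPM per kb). In SKOV3 RPL13A and RPL27 did not differ beyond their spread. RPS29, RPS28, RPL10 and RPL18 were lowest in both lines, at 2.08, 2.74, 7.98 and 8.21 CPM per kb in SKOV3 DMSO. These ranks depend on the length used: the table gives RPS29 an exonic length of 9783 bases, against 486 for its principal GENCODE transcript, and per kilobase of that transcript its SKOV3 level was 41.9 and its rank 71 of 77. A total of 1007 rows are named as pseudogenes of members. RPL23A has 93 of them and RPSA 74, and their counts came to 9.21% and 13.8% of the member's own. The share was larger for RPS26 (16.5%), RPL7 (16.2%), RPL41 (15.2%) and RPL9 (14.6%), and it was 8.4% for RPS28. Reads may therefore be split between near-identical copies for these and other members.

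Some members also share exons with other genes, and their counts are uncertain to that extent. RPL17 has 35.3% of its exonic length overlapped, mostly by the readthrough transcript RPL17-C18orf32. RPS10 has 28.8% overlapped by RPS10-NUDT3, RPS2 25.6%, RPS25 20.8% and RPL38 17.7%.

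Members with and without a TOP tract at their annotated start were both among those called. In SKOV3 at 40 mg/L, 33 of 46 members with a tract were called higher and 8 of 16 without one, with medians of 0.19 and 0.13. Of all genes tested, 26.4% were called higher in that comparison. In A2780 at 20 mg/L, 15 of 46 with a tract and 4 of 16 without were called lower, with a median of -0.12 in each. The share of all genes called lower there was 18.9%. RPL39, with the longest tract printed above, was not called in any dose comparison with DMSO, while RPS4X, without a tract at its annotated start, was called higher at 40 mg/L in both lines. The split depends on the exact start annotated: 57 of the 62 members had a C followed by at least 4 pyrimidines at or within 10 bases of it. The difference between members with and without a tract was not tested.

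Other transcripts of the translation machinery were counted in lists written from general knowledge. Beside these lists stand the shares of all genes tested at 40 mg/L: 26.4% called higher and 25.6% lower in SKOV3 (52.1% either way), and 17.7% and 19.2% in A2780 (36.9% either way). Of 9 non-coding hosts of small nucleolar RNAs, most of which are TOP transcripts, 8 were called higher in SKOV3 at 40 mg/L, with a median of 0.79. At 20 mg/L 5 were called higher, where 5.16% of all genes tested were. SNHG12 rose by 1.23 and SNHG8 by 1.00 at 40 mg/L. In A2780 at 40 mg/L 1 was higher (ZFAS1, 0.19) and 4 lower, with SNHG1 at -0.53 and SNHG16 at -0.39. In DMSO 8 of the 9 were lower in SKOV3 than in A2780, with a median of -1.56, where 37.2% of all genes were lower. At 40 mg/L the response of 8 of the 9 was more positive in SKOV3 than in A2780 by the interaction test, with a median difference of 0.81. That test called 14.3% of all genes in this direction.

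Of 17 elongation factors and other TOP mRNAs, 12 were called higher and 1 lower in SKOV3 at 40 mg/L, with EEF2, the translocation factor, at 0.56 and PABPC1, the poly(A)-binding protein, at 0.44. HNRNPA1, an RNA-binding splicing factor, was the one lower, at -0.68. In A2780 at 40 mg/L 1 was higher (EEF2, 0.21) and 3 lower, among them HNRNPA1 at -0.39 and BTF3 at -0.19. These are 76.5% of the list called in SKOV3, above 52.1% of all genes, and 23.5% in A2780, below 36.9%.

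Paralogs of ribosomal proteins moved in both directions. Of 6 tested, RPL22L1 (0.43) and RPL7L1 (0.42) were higher in SKOV3 at 40 mg/L, and 3 were lower, including RPL26L1 (-0.65) and RPL39L (-0.61). RPL22L1 fell by 0.48 in A2780 at 40 mg/L. RPS27L, a known p53 target, was higher in A2780 at 40 mg/L, at 63.8 ± 6.33 CPM against 44.2 ± 0.916 CPM in DMSO (SD, n = 3 each), a log2 fold change of 0.51 (adjusted p = 1.1e-06), and lower in SKOV3 (-0.24).

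Assembly and surveillance factors were counted next. Of 11 chaperones of ribosomal proteins and assembly factors of the 5S particle, 3 were higher and 2 lower in SKOV3 at 40 mg/L, and 1 was higher and 7 lower in A2780. The list's 45.5% called in SKOV3 lay below the 52.1% of all genes, and its 72.7% in A2780 above 36.9%. BCCIP, a chaperone of RPL23, fell in both lines (-0.28 in SKOV3 and -0.61 in A2780), and RRS1, which helps to load the 5S particle, fell in A2780 (-0.60). HEATR3, which imports RPL5, fell by 0.19 in SKOV3 and 0.43 in A2780. GLTSCR2, also a 5S assembly factor, rose in both (0.40 in SKOV3 and 0.22 in A2780), and LTV1, a small-subunit export factor, rose in SKOV3 (0.28). Of 12 factors for idle or stalled ribosomes, 6 were higher and 2 lower in SKOV3 at 40 mg/L and 3 higher and 5 lower in A2780, 66.7% of the list in each line. SERBP1, which clamps idle ribosomes, was at -0.54 in A2780, where ZNF598, which marks collided ribosomes, was at -0.49. ABCE1, the recycling factor, rose by 0.32 in SKOV3, PELO, which rescues stalled ribosomes, by 0.63 in A2780 and HABP4 by 0.31 in SKOV3 and 0.25 in A2780. HBS1L (-0.41) and CCDC124 (-0.17) fell in SKOV3. The differences between lines in these counts were not tested.

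In the mTORC1 pathway and its TOP-binding proteins, 17 genes were tested. At 40 mg/L 9 were higher and 4 lower in SKOV3, and 2 were higher and 3 lower in A2780. These are 76.5% of the list called in SKOV3, against 52.1% of all genes, and 29.4% in A2780, against 36.9%. DDIT4, an inhibitor of mTORC1, fell in both lines (-0.88 in SKOV3 and -0.59 in A2780), as did RPTOR, its substrate-binding subunit (-0.51 in SKOV3 and -0.69 in A2780). TSC1, another inhibitor, rose in both (0.41 in SKOV3 and 0.31 in A2780). SESN2, an amino-acid sensor that restrains mTORC1, rose in SKOV3 (0.85), and AKT1S1, an inhibitory subunit, fell there (-0.63). SESN1 rose by 0.91 in A2780.

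The 78 mitochondrial ribosomal proteins, which serve a separate translation system, were counted for comparison. In SKOV3 at 40 mg/L 13 were higher and 21 lower, with a median of -0.06, beside 51 higher and 1 lower and a median of 0.19 for the cytosolic members. The 43.6% of them called lay below the 52.1% of all genes. In A2780 at 20 mg/L, where 36.9% of all genes were called, 3 were higher and 44 lower with a median of -0.26, and at 40 mg/L 5 were higher and 36 lower with a median of -0.20, which is 60.3% of the set called at 20 mg/L and 52.6% at 40 mg/L. In DMSO 35 were higher and 22 lower in SKOV3 than in A2780, where 41.2% of all genes were higher and 37.2% lower. No test of the difference between the 2 sets was made.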

How the data were processed

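The deposited table holds raw, whole-number read counts per gene for 18 libraries, not normalised by the authors, with coordinates and exonic lengths, per the file headers. The submitters' processing notes name Trimmomatic 0.36 and GRCh38, and the kit is stranded, per the labels' protocols. No source used here gives the aligner, counter, annotation release or strand setting. Small counts were mostly even (75.4% of counts from 1 to 12), so both mates of a pair appear to be counted and depth in fragments is overstated. In all 18 replicate pairs the chi-square per degree of freedom was 5.03 to 34.7, above what counting error alone gives.

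Each line was fitted alone (9 libraries, 6 residual degrees of freedom; 20593 genes in A2780 and 21936 in SKOV3 after filterByExpr) with edgeR 4.0.16 in R 4.3.3, TMM scaling and the robust quasi-likelihood F test. The lines' responses and baseline were compared in a fit of all 18 libraries (23742 genes, 12 degrees of freedom). P-values were Benjamini-Hochberg adjusted over all genes, two-sided, and called under 0.05. CPM are TMM-scaled, within a line unless stated. Biological coefficients of variation were 7.71% (A2780) and 5.83% (SKOV3). The edgeR fit within each line was also run on simulated counts with known fold changes and the same spread for every gene. That run does not measure the rate of false calls in these data. Sequences are RefSeq entries. RLE, upper-quartile and no scaling, other gene and library sets, DESeq2 1.42.0, a replicate block and left-out libraries served as alternatives. Always named were RPLP0, RPSA, RPS6, RPL5, RPL11, RPL39, RPL22, RPS27 and RPS27A. Also named were, per comparison and subunit, the 3 highest and 3 lowest called members of at least 5 CPM, without overlap within a line, members called in both lines at 40 mg/L, the 4 highest and 4 lowest per kilobase, and up to 2 highest and 2 lowest per related list. Other members are named for their role or as ends of a range, after their values were seen. Some genes that meet this rule are not reported here by name. Members, lists and roles were chosen with earlier results of these data known.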

Additional observations from a re-analysis of the deposited data

Results flagged for a closer look

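The difference in response between the lines, SKOV3 minus A2780, was called for 20 members at 20 mg/L by the interaction test (26% of members), where 21.6% of all genes tested were called in either direction. Those named were RPL29 (0.48), RPL35A (0.43), RPS13 (0.41), RPS24 (0.32) and RPS25 (0.30), on the log2 scale. At 40 mg/L it was called for 26 members (33.8%), where 29.9% of all genes were called, among them RPL10 (0.48), RPL29 (0.41), RPL37 (0.39), RPS21 (0.39), RPS18 (0.38) and RPS24 (0.36). All 20 and all 26 were more positive in SKOV3, where 11% and 14.3% of all genes were called in that direction.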

How the results depend on the processing

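Counts of members called moved by more than 1.5 times as follows. With library size alone in place of TMM, 7 were called in A2780 at 20 mg/L, 13 in SKOV3 at 20 mg/L and 13 for the line difference at 20 mg/L. All genes called lower in the first came to 13.2%, and those called higher in the others to 7.17% and 8.83%. Between the A2780 doses, where edgeR with TMM called 0, DESeq2 called 3, RLE scaling 2, no filter 3, mitochondrial genes left out 1, pseudogene rows added 1, a fit of all 18 libraries 3, and leaving out the lowest-mitochondrial A2780 libraries 13. In these settings between the A2780 doses 3.79% to 7.96% of all genes were called higher. In SKOV3 at 20 mg/L, where 2 were called, a fit of only both groups called 9 and 6.14% of all genes higher. The removal of the lowest-mitochondrial libraries and, for the counts of calls, the adding of pseudogene rows were chosen after seeing the data. The small-subunit sum in SKOV3 DMSO was 5781 CPM with library size alone, against 5956 CPM scaled over all 18 libraries. With pseudogene rows the subunit ratio in SKOV3 was 2.79 in DMSO, 2.81 at 20 mg/L and 2.73 at 40 mg/L. The cause was not tested in any of these.

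Leaving out 1 library at a time gave 10 to 24 calls in A2780 at 20 mg/L, 5 to 10 at 40 mg/L and 0 to 8 between doses. In SKOV3 it gave 1 to 2 at 20 mg/L and 12 to 40 between doses, and for the line difference 10 to 25 at 20 mg/L and 15 to 31 at 40 mg/L. Signs near 0 turned in A2780 at 20 mg/L for RPL5 (-0.05 to 0.07), RPL39 (-0.12 to 0.05) and RPS27 (-0.01 to 0.08), and at 40 mg/L for RPL39 (-0.13 to 0.06) and RPS27A (-0.10 to 0.05). In SKOV3 at 20 mg/L they turned for RPL11 (-0.03 to 0.07), RPL39 (-0.02 to 0.03) and RPL22 (-0.05 to 0.03). Without the lowest-mitochondrial libraries RPL5 stood at -0.05 and RPL39 at 0.05 at 20 mg/L, and RPL39 at 0.06 and RPS27A at 0.05 at 40 mg/L. With library size alone the turned values were RPS6 0.05, RPL39 0.05 and RPL22 0.01 in A2780 at 20 mg/L, and RPL11 0.02, RPL39 0.04, RPL22 0.05 and RPS27A 0.07 at 40 mg/L. In SKOV3 they were RPSA 0.02 and RPL22 0.02 at 20 mg/L and RPL22 0.01 at 40 mg/L. None of the members whose sign turned was called in that comparison. Of all alternative values for named members, 1532 kept direction and call, 76 lost the call, 8 gained one and 27 changed sign.

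Replicate numbers showed no clear pairing of libraries between groups: same-numbered libraries correlated at -0.06 to 0.03 in A2780 and -0.02 to 0.05 in SKOV3. Differently numbered libraries correlated at -0.08 to 0.07 in A2780 and -0.05 to 0.02 in SKOV3. Shared cultures or batches are not excluded by such values. The replicate block gave 4 calls in SKOV3 at 20 mg/L and moved no other count of members by over 1.5 times; among named members it ended the A2780 calls of RPL14 and RPS4X at 40 mg/L and of RPSA at 20 mg/L. Depth was at least 30016475 counts per library, and 3 libraries a group limit the precision.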
